A study of Rattus norvegicus with 10 samples.

Results

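The Egr family of immediate early genes comprised 4 of the 30560 genes in the count table, namely Egr1 (ENSRNOG00000019422), Egr2 (ENSRNOG00000000640), Egr3 (ENSRNOG00000017828) and Egr4 (ENSRNOG00000015719). They were chosen by identifier, with the comparison of these same rats already known. Egr2 is named in the study among genes selected on their difference between these groups that were also predicted targets of miR-25-3p. The other 3 members were taken with it as a family once the values of these rats were known. The group differences of the 4 genes are therefore given as a description without a test. All 4 genes had counts in every rat and passed the filter on low counts, as did 16137 genes in all. The rats were male wild type SD rats, 21 days old on arrival, which after 1 week of habituation received intraperitoneal injections for 2 weeks. The control group (n = 5) received saline (0.9%), and the MK-801 group (n = 5) received MK-801 at 0.2 mg/kg, a non-competitive antagonist of the NMDA receptor used in rats as a model relevant to schizophrenia. The prefrontal cortex (PFC) of each rat gave 1 library, and the interval between the last injection and tissue collection is not given in the sources used here. The PFC label was not checked against cell type markers, because the table carries identifiers without names.

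Egr proteins are zinc finger transcription factors that bind GC-rich sites in DNA. Their genes are switched on within minutes by synaptic activity, calcium entry and growth factors, chiefly through serum response factor, which binds the CArG box, and through CREB, which binds the cAMP response element (CRE). The proteins then drive a later wave of transcription, and several of them are held in check by the Nab corepressors. Egr1, also known as zif268 or NGFI-A, is widely used as a marker of neuronal activity and is needed for lasting synaptic plasticity. Egr2, also known as Krox20, is known best for its part in hindbrain patterning and in myelination by Schwann cells. Egr3 is needed for muscle spindle development and takes part in memory, and Egr4, also known as NGFI-C, is known for its part in male fertility.

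The promoters of Egr1, Egr2 and Egr4 are shown because the 4 genes are induced by the same signals, and a promoter could be matched for 3 of the 4 members. Each sequence is the 250 bases before the annotated start in RefSeq, on build GRCr8, read 5′ to 3′ on the strand of the gene. These are chr18:26736828-26737077 on the plus strand for Egr1, chr20:21054442-21054691 on the minus strand for Egr2 and chr4:119607818-119608067 on the minus strand for Egr4. Capitals mark exact matches to the CArG box, taken as CCWWWWWWGG with W for A or T, and to TGACG, the core of the CRE, on either strand.
Egr1: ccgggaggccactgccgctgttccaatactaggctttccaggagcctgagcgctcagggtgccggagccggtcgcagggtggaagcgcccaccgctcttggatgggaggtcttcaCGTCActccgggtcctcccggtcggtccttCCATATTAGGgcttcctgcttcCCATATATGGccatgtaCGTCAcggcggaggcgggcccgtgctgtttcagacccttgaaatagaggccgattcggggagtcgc
Egr2: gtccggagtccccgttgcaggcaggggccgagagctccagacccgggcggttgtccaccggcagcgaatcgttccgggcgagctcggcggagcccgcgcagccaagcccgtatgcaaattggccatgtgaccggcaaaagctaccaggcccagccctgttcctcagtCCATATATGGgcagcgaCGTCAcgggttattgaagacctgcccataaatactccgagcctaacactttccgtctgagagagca
Egr4: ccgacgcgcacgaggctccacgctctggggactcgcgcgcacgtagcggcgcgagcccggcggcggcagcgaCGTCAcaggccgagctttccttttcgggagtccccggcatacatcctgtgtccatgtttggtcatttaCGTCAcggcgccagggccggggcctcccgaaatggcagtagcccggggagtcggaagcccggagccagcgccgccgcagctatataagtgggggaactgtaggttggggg

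Egr1 and Egr2 carried the same CArG box, CCATATATGG, at the same place, 83 to 74 bases before the start. In both it was followed by the CRE core, in its reverse form CGTCA, at 66 to 62 bases. Egr1 had a further CArG box at 105 to 96 bases and a further CRE core at 135 to 131 bases. Egr4 had CRE cores at 178 to 174 and 110 to 106 bases and no exact match to the CArG box in this window. Its letters ccatgtttgg, shortly before the latter CRE core, differ from that pattern in a single letter. Near matches were not counted in any window. Of 33469 rat promoters of the same length, 1.5% held a CArG box and 18.2% held the CRE core on either strand. The complete CRE, TGACGTCA, was found in none of the 3 Egr windows and in 1.59% of all promoters. The Egr sites GCGTGGGCG and GCGGGGGCG were likewise not among the letters of the 3 windows, against 0.478% and 2.45% of all promoters, nor was TATAAA, against 12.9%. Only these exact letters were searched, and the Egr4 window holds the similar letters tatataag near its end. The CRE core lies within the complete CRE, whereas the other motifs were searched independently. These matches describe the letters of the windows and do not show that a factor was bound.

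The depth of the libraries was alike in the groups, at 24348037 to 29375092 counts in the control group and 24334589 to 30824539 in the MK-801 group. In each library, the 10 genes with most counts made up 8.27% ± 1.81 (SD, n = 5) of the total for the controls and 6.66% ± 0.471 (SD, n = 5) for the MK-801 rats (two-sided exact permutation test, p = 0.0714). Levels are given as CPM, that is, counts scaled to a common library size by the TMM method. Levels are compared between rats and not between genes, since CPM does not take the length of a transcript into account. In bulk tissue, fewer cells with a transcript and less transcript per cell cannot be told apart.

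Egr2 showed the largest difference of the family. The control rats had 2.30, 3.13, 1.30, 3.45 and 4.79 CPM in the order of replicates 1 to 5, from 37 to 142 counts. The MK-801 rats had 2.20, 16.0, 18.1, 19.6 and 12.4 CPM in the same order. MK-801 replicates 2 to 5 lay above every control rat, whereas MK-801 replicate 1 lay below the control median, so that the groups overlapped. The mean was 13.7 CPM ± 6.97 (SD, n = 5) with MK-801 and 2.996 CPM ± 1.30 (SD, n = 5) with saline. This was a log2 fold change of 2.18 (standard error 0.48), or 4.55-fold, and only 3 of the 16137 genes tested had a higher fold change. Against the control median, the level was 3.95 to 6.27 times as high in MK-801 replicates 2 to 5 and 0.701 times as high in MK-801 replicate 1. Counting error was small beside these differences: the 66 counts of MK-801 replicate 1 had a 95% exact Poisson interval of 51.0 to 84.0, and the 384 counts of MK-801 replicate 5 one of 347 to 424.

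Egr1 had the same pattern of rats at a smaller fold change. Its level was 128, 109, 110, 137 and 177 CPM in control replicates 1 to 5 and 124, 258, 283, 250 and 234 CPM in MK-801 replicates 1 to 5. MK-801 replicates 2 to 5 again lay above every control rat and MK-801 replicate 1 below the control median. The mean was 230 CPM ± 61.7 (SD, n = 5) with MK-801 and 132 CPM ± 27.9 (SD, n = 5) in the controls, a log2 fold change of 0.80 (standard error 0.20). Control replicate 5 had the highest control value of both Egr1 and Egr2.

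**Figure D1:**
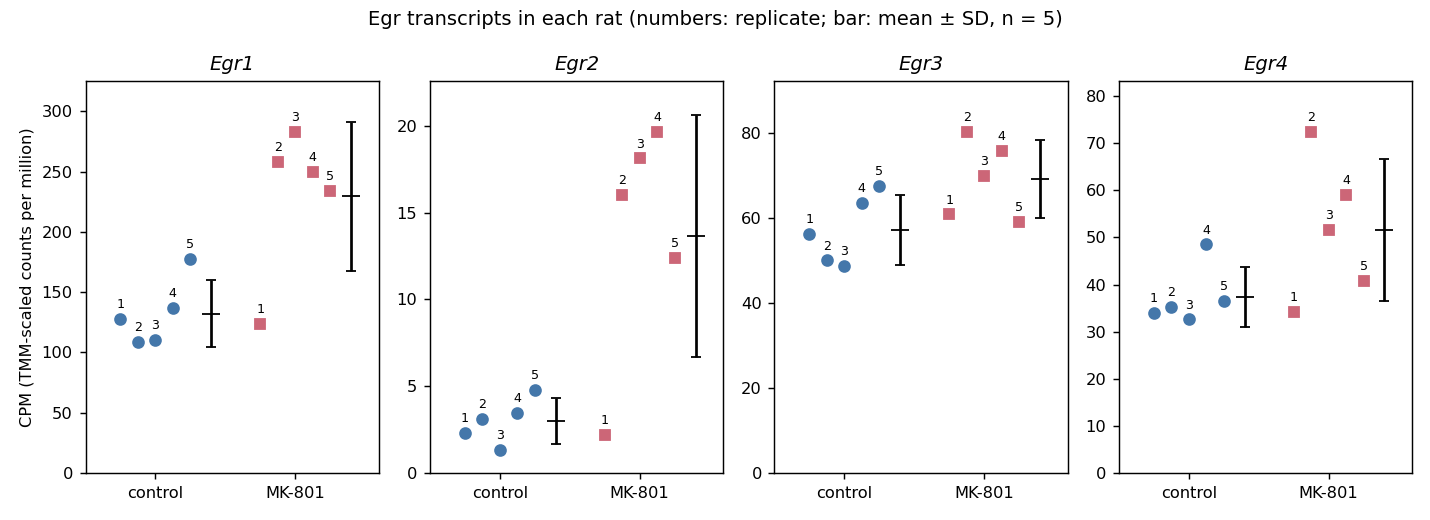
CPM of Egr1, Egr2, Egr3 and Egr4 (y axes, from 0) in each control rat (circles) and each MK-801 rat (squares), numbered by replicate, with the mean and SD of each group of 5 rats beside them. MK-801 replicate 1 sits among the control rats in all 4 panels, at 2.20 CPM for Egr2 and 124 CPM for Egr1.

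Egr4 had 33.9, 35.3, 32.6, 48.5 and 36.5 CPM in control replicates 1 to 5. In MK-801 replicates 1 to 5 it had 34.3, 72.4, 51.6, 59.0 and 40.7 CPM. MK-801 replicates 2, 3 and 4 lay above every control rat, while MK-801 replicates 1 and 5 lay below control replicate 4. The means were 51.6 CPM ± 15.03 (SD, n = 5) and 37.4 CPM ± 6.40 (SD, n = 5) in the MK-801 and control groups, a log2 fold change of 0.46 (standard error 0.18).

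Egr3 differed least. It had 56.2, 49.98, 48.7, 63.5 and 67.5 CPM in control replicates 1 to 5 and 60.8, 80.1, 69.9, 75.7 and 59.0 CPM in MK-801 replicates 1 to 5. All 5 MK-801 rats lay above the control median, and 3 of them, replicates 2, 3 and 4, lay above every control rat. The means were 69.1 CPM ± 9.17 (SD, n = 5) with MK-801 and 57.2 CPM ± 8.24 (SD, n = 5) in the controls, a log2 fold change of 0.27 (standard error 0.11). With the share held by the 10 top genes of each library as covariate, this value was 0.18 (standard error 0.13).

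**Figure D2:**
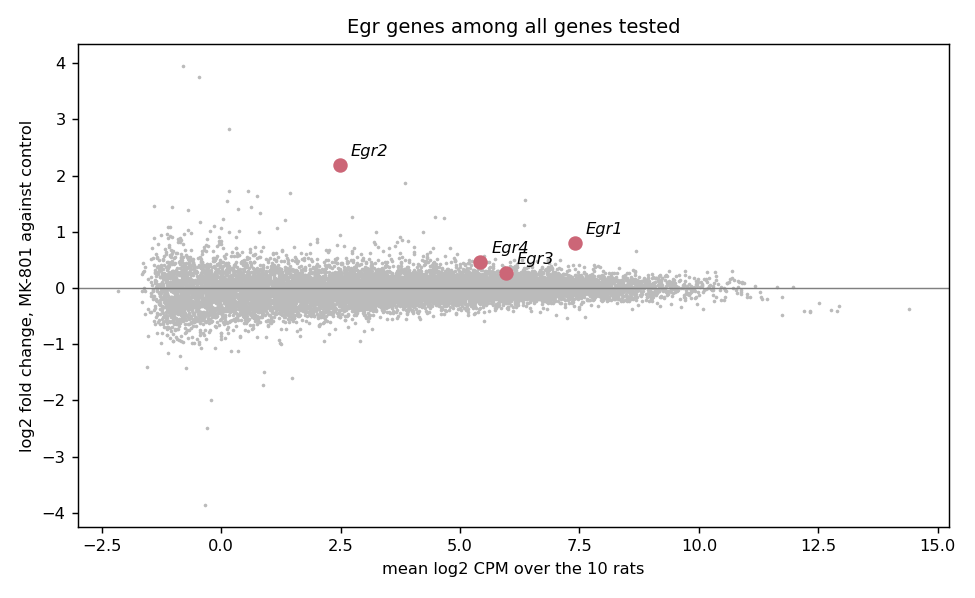
Log2 fold change between MK-801 and control rats (y axis, above 0 where MK-801 was higher) against mean log2 CPM over the 10 rats (x axis) for the 16137 genes tested, with the Egr genes in red. Egr2, at 2.18, and Egr1, at 0.80, stand above the bulk of genes of like level, and Egr4 and Egr3 lie at 0.46 and 0.27.

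Over all genes tested, the median log2 fold change was -0.01, and 96.5% of genes lay within 0.5 of 0. Among all fold changes from the highest down, Egr1 was at place 64, Egr4 at place 295 and Egr3 at place 984. The calls of the family are listed with the share of all genes called, and since the members were chosen on this contrast nothing is read from them. By the criteria of the study, an unadjusted p-value under 0.05 with a log2 fold change of 1 or more in size, edgeR's quasi-likelihood test called 1 member, Egr2, and 0.167% of all genes as higher with MK-801. The study itself applied these criteria with DESeq2. At an adjusted p-value under 0.05, the same test called 0 members and 0 of 16137 genes (0%), while 2235 genes had an unadjusted p-value under 0.05, and limma-voom also called 0 genes. DESeq2 called Egr1 and Egr2 as higher at an adjusted p-value under 0.05, as it did 0.444% of the 14633 genes it gave an adjusted p-value. None of the 4 members had groups without overlap, against 1.10% of all genes with every MK-801 rat above every control rat. A wider set of 741 genes (4.59%) had at least 4 MK-801 rats above every control rat, and Egr1 and Egr2 were among them.

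Whether edgeR called Egr1 and Egr2 at an adjusted p-value under 0.05 turned on a single rat. The library labelled MK-801 replicate 1 had levels of all 4 genes within the range of the control rats, and whether its label is right was not tested. Without MK-801 replicate 1, the log2 fold change was 2.46 (standard error 0.28) for Egr2, 0.95 (standard error 0.13) for Egr1, 0.58 (standard error 0.16) for Egr4 and 0.31 (standard error 0.11) for Egr3. In that fit edgeR called Egr1 and Egr2 at an adjusted p-value under 0.05, with 0.0739% of all genes called as higher. Without both MK-801 replicate 1 and control replicate 5, a setting chosen after seeing the data, the values were 2.71 (standard error 0.26) for Egr2, 1.09 (standard error 0.09) for Egr1, 0.58 (standard error 0.18) for Egr4 and 0.38 (standard error 0.11) for Egr3, with the same 2 members called and 0.0869% of all genes. The value of Egr4 moved most without MK-801 replicate 2, to 0.31 (standard error 0.16), and that of Egr3 without control replicate 5, to 0.34 (standard error 0.11). These rats were kept in all other values.

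**Figure D3:**
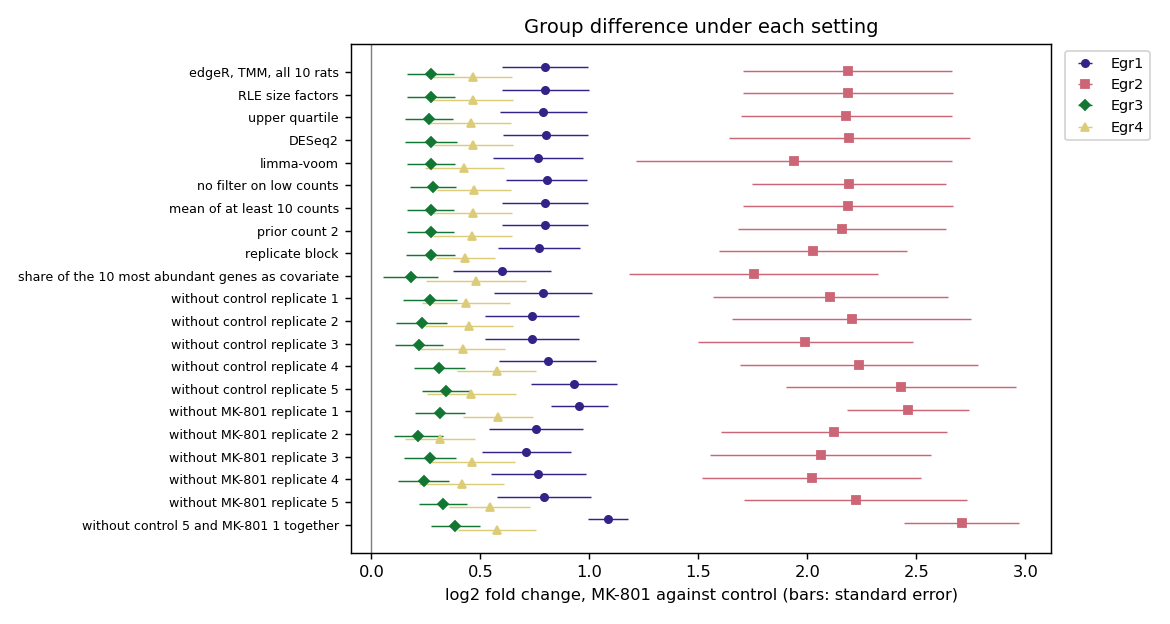
Log2 fold change between MK-801 and control rats (x axis, above 0 where MK-801 was higher) with its standard error (bars) for the Egr genes under each setting (y axis). All values lie above 0, Egr2 from 1.75 to 2.71 and Egr3 from 0.18 to 0.38, and the bars of Egr1 and Egr2 are shortest where MK-801 replicate 1 is left out.

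The members were not higher by an equal factor, as seen when they were set against each other within a rat. The log2 ratio of Egr2 to Egr1 in CPM was between -4.23 and -3.66 in MK-801 replicates 2 to 5. In the control rats it was between -6.32 and -5.08, and in MK-801 replicate 1 it was -5.77, within the control range. The log2 ratio of Egr3 to Egr1 ran the other way, from -1.39 to -1.10 in the control rats and from -2.02 to -1.02 in the MK-801 rats. The value of -1.02 was that of MK-801 replicate 1 and lay above the control range. The ratios are formed from the levels given above, so they are not separate evidence on this rat. The log2 ratio of Egr4 to Egr3 overlapped, at -0.89 to -0.39 in the control rats and -0.83 to -0.15 in the MK-801 rats. A shift of the ratio in CPM compares rats and carries no information on which transcript was more abundant.

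**Figure D4:**
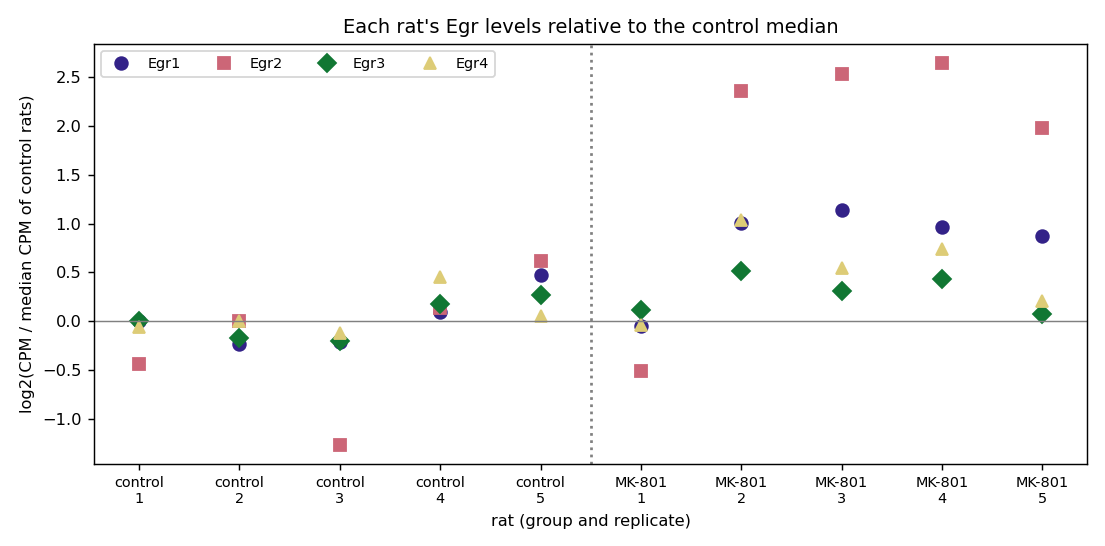
Log2 of the CPM of each Egr gene over its median in the control rats (y axis) for the 10 rats (x axis). In MK-801 replicates 2 to 5 Egr2 lies highest and Egr1 second or close to Egr4, while in MK-801 replicate 1 none of the 4 genes is far above 0.

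The variation between rats of one group was used to ask whether the family varied together. It sets the standard errors of the group differences, so it is not free of the choice of the members. After each group was centred on its own mean, Pearson's r of log2 CPM over the 10 rats was 0.92 for Egr1 with Egr2, 0.78 for Egr3 with Egr4, 0.72 for Egr2 with Egr4, 0.69 for Egr1 with Egr3, and 0.64 both for Egr1 with Egr4 and for Egr2 with Egr3. The order of the pairs changed with the rats and the measure. Without MK-801 replicate 1, r was highest for Egr1 with Egr3, at 0.79, followed by 0.77 for Egr3 with Egr4, 0.73 for Egr2 with Egr3 and 0.72 for Egr1 with Egr2. Within the control group Egr1 with Egr3 was also highest, at 0.94. By Spearman's rho, Egr2 with Egr4 and Egr3 with Egr4 were equal, at 0.77. With all rats, of the 16136 other genes, 6 were closer to Egr1 than Egr2 was and 10 were closer to Egr2 than Egr1 was. For Egr3, 75 genes were closer than Egr4, and for Egr4, 133 were closer than Egr3. The rats share their library, scaling and depth across genes, so these values are a description.

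Several pairs rested in part on MK-801 replicate 1. Without it, r was 0.28 for Egr1 with Egr4 and 0.45 for Egr2 with Egr4. For Egr1 with Egr2, within the MK-801 group r was 0.99 and within the control group 0.73, each over 5 rats. It was 0.72 without MK-801 replicate 1, 0.93 without control replicate 5 and 0.51 without both rats, the last a setting chosen after seeing the data. Egr3 with Egr4 kept a value of 0.93 without these 2 rats. Its lowest value within a group was 0.60, in the control rats, where control replicate 5 had the highest Egr3 and an Egr4 level near the group mean. The mean of all 6 pairs was 0.73 with all rats and 0.65 without these 2 rats.

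**Figure D5:**
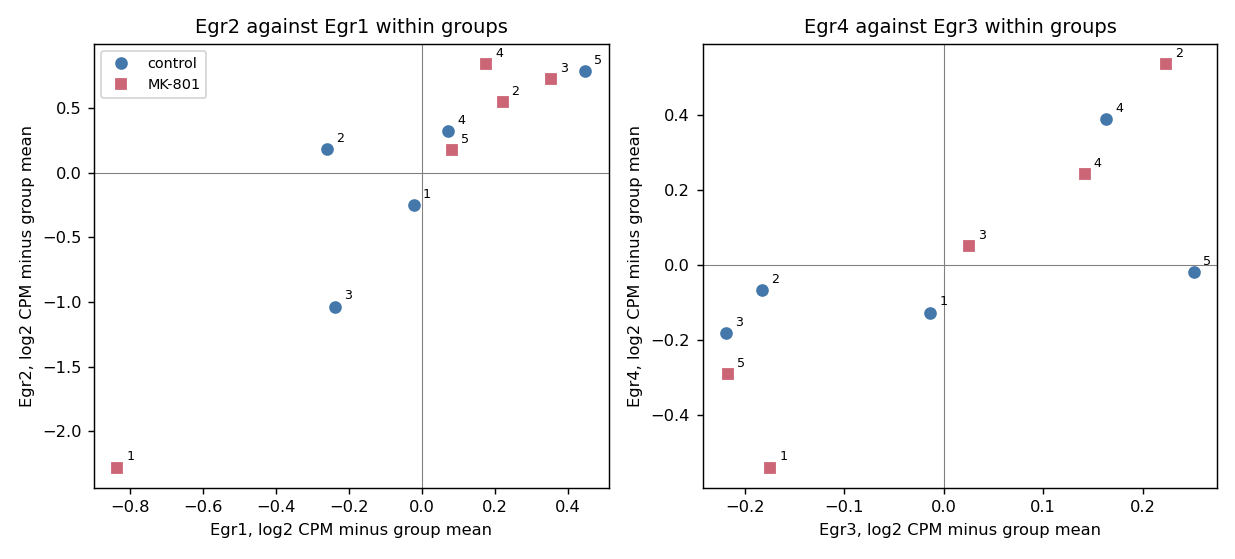
Log2 CPM minus the group mean of Egr2 against Egr1 (left) and of Egr4 against Egr3 (right) in the control rats (circles) and MK-801 rats (squares), numbered by replicate. MK-801 replicate 1 lies far to the lower left for Egr1 and Egr2, where r was 0.92, and the points of Egr3 and Egr4 are spread along the diagonal, with r at 0.78.

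The Egr genes also varied more between rats than most genes of like level. The standard deviation of log2 CPM within groups was 1.04 for Egr2, 0.39 for Egr1, 0.34 for Egr4 and 0.20 for Egr3. Of the 1000 genes nearest in mean log2 CPM to each member, 99.2% had a smaller spread than Egr2, 98.6% than Egr1, 97.9% than Egr4 and 88.3% than Egr3. MK-801 replicate 1, the lowest MK-801 rat for Egr1, Egr2 and Egr4, enters these values. In the control group alone, the standard deviation of log2 CPM was 0.69 for Egr2, 0.29 for Egr1, 0.23 for Egr4 and 0.21 for Egr3. These control values were not set against those of genes of like level.

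Measures of the libraries moved with the members to a varying degree. With each group centred, r of log2 CPM with the log2 total count of the library was -0.76 for Egr4, -0.56 for Egr2, -0.43 for Egr3 and -0.29 for Egr1 over the 10 rats. With the share held by the 10 top genes it was -0.46 for Egr2, -0.45 for Egr1, -0.40 for Egr3 and 0.01 for Egr4. With this share as a covariate, the log2 fold changes were 1.75 (standard error 0.57) for Egr2, 0.60 (standard error 0.22) for Egr1 and 0.48 (standard error 0.23) for Egr4. The part of these measures in the group differences was not tested otherwise.

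The gene most like the family was sought by its correlation with the mean of the 4 members over the 10 rats, each group centred, among 16064 genes with a mean of at least 10 counts. The highest r was that of ENSRNOG00000069265, at 0.96, and the next that of ENSRNOG00000007607, at 0.95. The former varied with the family but not between the groups. It had 41.3 to 52.4 CPM in the control rats, with a median of 47.3, and 39.6 to 52.5 CPM in the MK-801 rats, with a median of 49.6, and its lowest values were in control replicate 3 and MK-801 replicate 1. Its log2 fold change was -0.01 (standard error 0.09). ENSRNOG00000007607 followed the family between the groups as well: it had 42.9 to 81.1 CPM in the control rats, 46.1 CPM in MK-801 replicate 1 and 135 to 167 CPM in MK-801 replicates 2 to 5, a log2 fold change of 1.12 (standard error 0.28). Without MK-801 replicate 1 and control replicate 5, its r was 0.76, at place 447 of the 16064 genes, so that it was no longer among those most like the family, and that of ENSRNOG00000069265 was 0.95, at place 9. The files pair neither identifier with a name.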

How the data were processed

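RNA of the PFC of 5 control and 5 MK-801 rats was sequenced. According to the study's methods and the submitters' processing notes, the authors used HISAT2, version 2.2.1, for alignment, with SAMtools, version 1.15.1, on the build mRatBN7.2 with Ensembl release 105, and counted them with featureCounts of Subread (version 2.0.1). Strand setting and handling of multi-mapped reads are not given in the sources used here, so that antisense or overlapping genes may share reads. The authors deposited raw counts per gene and rat, not normalized. The filter on low counts was filterByExpr of edgeR (version 4.0.16, R version 4.3.3; minimum count 10, minimum total 15), libraries were scaled by TMM, and all genes were fitted with glmQLFit and compared by the two-sided quasi-likelihood test with Benjamini-Hochberg adjustment. Each standard error is the fold change divided by the root of its F statistic. Log2 CPM used a prior count of 2. The lowest chi-square per degree of freedom between 2 libraries was 8.76, so none was a duplicate. No label names separate litters or batches.

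The alternatives were RLE and upper quartile scaling, DESeq2 (version 1.42.0), limma-voom (limma version 3.58.1), no filter, a mean of at least 10 counts, a prior count of 2 in place of 0.125, the replicate number as a block, the share held by the 10 top genes of each library as covariate, and each rat left out. DESeq2 was run on all genes with a count in any rat, without the filter on low counts. The members, lists and settings were chosen with earlier results of these data known. The genes named are the 4 members and the 2 most like their mean. Lists of activity-induced genes, upstream regulators, Egr targets and cell type markers could not be run, since 0 of the 30560 identifiers matched the RefSeq gene table of GRCr8. Identifiers of the members were paired with symbols by the rule that chose them. Promoters came from RefSeq on GRCr8, a build other than that of the counts, and the promoter of Egr3 was not used here.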

Additional observations from a re-analysis of the deposited data

Results flagged for a closer look

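Among 12 groups of 5 rats (the log2 CPM of the 4 Egr genes, the log2 total count and the share held by the 10 top genes, each in the control and the MK-801 group), 3 held a rat set apart from its nearest neighbour by more than 0.71 of the distance between lowest and highest rat; by chance about 1 group in 20 does. For MK-801 replicate 1, the lowest of its group, this measure was 0.771 in Egr1, at 124 CPM, and 0.788 in Egr2, at 2.20 CPM. For control replicate 4, the highest of its group, it was 0.713 in Egr4, at 48.5 CPM, and without it the log2 fold change of Egr4 was 0.58 (standard error 0.18). The values of Egr1 and Egr2 for MK-801 replicate 1 come from the same library and are not independent of each other. The correlation of Egr1 with Egr2 rests in part on this rat, with r at 0.92 with all rats and 0.72 without it. What set these rats apart, and whether the label of MK-801 replicate 1 is right, was not tested.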

How the results depend on the processing

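All 4 Egr genes were higher in the MK-801 group in the 9 alternatives that keep all rats and in the 10 fits that each left out 1 rat. Over the 9 alternatives the log2 fold change was 1.75 to 2.19 for Egr2, 0.60 to 0.80 for Egr1, 0.43 to 0.48 for Egr4 and 0.18 to 0.28 for Egr3, the values of 1.75, 0.60 and 0.18 coming with the covariate. With 1 rat left out it was 1.99 to 2.46 for Egr2, 0.71 to 0.95 for Egr1, 0.31 to 0.58 for Egr4 and 0.22 to 0.34 for Egr3. Egr2 met the criteria of the study in all of these fits, and Egr1, Egr3 and Egr4 in none of them. These fits reuse the rats on whose difference the members were chosen, so the outcome was largely set in advance and nothing is read from it. How many of all genes kept their sign or call in every fit was not counted. Over all genes, 0 were called at an adjusted p-value under 0.05 by edgeR's quasi-likelihood test (2235 at an unadjusted p-value under 0.05), 106 by DESeq2 and from 0 to 12 with 1 rat left out, the 12 without MK-801 replicate 1. With edgeR, the criteria of the study were met by 37 of 16137 genes, and by 337 of 23914 genes without a filter. DESeq2, the tool that the study used, was also run without this filter, and 115 of 23914 genes met them. The 37 and the 115 therefore differ in the genes tested as well as in the tool. With 1 rat left out, edgeR gave from 39 to 64, the 58 and 64 without MK-801 replicates 1 and 5. The 372 genes without overlap of the groups became 455 to 1173 with 1 rat left out, since fewer rats overlap less often, and the 1173 came without control replicate 5. The 2235 genes at that unadjusted threshold fell to 777 with the covariate, and to 1458 and 1474 without control replicates 3 and 4. Without MK-801 replicate 1 and control replicate 5, a setting chosen after seeing the data, the counts were 15, 56 and 1477. The mean within-group correlation of the 6 pairs was 0.73, and 0.62 to 0.79 with 1 rat left out. The groups share replicate numbers. Deviations of same-numbered rats correlated above 0.1 in 3 of 5 pairs, at 0.12 on average. Differently numbered rats correlated at -0.03 on average and at 0.13 at the highest. Centring each group on its own mean holds the average over all pairs near 0, so the -0.03 largely follows from the 0.12. The same-numbered rats 1, at 0.18, and 5, at 0.32, lay above that highest value. The pairing was not used in the main fit, and whether the numbers mark a shared batch was not tested. With the replicate block, the log2 fold changes were 2.03 for Egr2, 0.77 for Egr1, 0.43 for Egr4 and 0.27 for Egr3, the criteria were met by 39 genes, and 0 passed after adjustment. Where neither fewer genes nor fewer rats made the difference, the cause was not tested. The comparisons of gene lists were not run, as no identifier matched a name. With 37 counts at the lowest, Egr2 had the fewest counts of the members.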

Other observations

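Genes that varied with the Egr family within the groups were about as often lower as higher in the MK-801 group, as were all genes tested. Of the 16064 genes considered, 111 had r of at least 0.8 with the mean of the 4 members over the 10 rats, each group centred, and 55 of these (49.5%) had a higher mean in the MK-801 group, against 48.7% of all genes tested. Their median log2 fold change was -0.00053, and that of all genes tested was -0.0052. The limit of 0.8 was chosen after seeing the data. The count was not repeated without MK-801 replicate 1 and control replicate 5, on which likeness to the family depended in part.

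Among genes with exactly 4 MK-801 rats above every control rat, MK-801 replicate 1 was not the most frequent exception. This count takes no account of the size of the difference, and the label of this rat was not tested. Without this rat, edgeR's quasi-likelihood test called 12 genes at an adjusted p-value under 0.05, more than without any other single rat. In 564 genes exactly 4 MK-801 rats lay above every control rat, as in Egr1 and Egr2, and the remaining rat was MK-801 replicate 1 in 98 of them, replicate 2 in 133, replicates 3 and 4 in 113 each and replicate 5 in 107.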
